A study of Mus musculus with 8 samples.

Results

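Genes of the resident macrophages of bone marrow were followed in the RNA-seq of B cells taken from the marrow of ovariectomized mice (OVX) and of mice after sham surgery (Sham). The 9 genes were C1qa, C1qb, C1qc, Vcam1, Adgre1, Spic, Axl, Mertk and Cd68, found by their Ensembl identifiers among the 54532 genes counted, each with a single identifier. All 9 had enough reads to be among the 15305 genes tested. There were 3 libraries per group. Removal of the ovaries served as a model of estrogen deficiency, and the sham control mice went through surgery with the ovaries left in place. The sources name no engineered allele for the sequenced mice, and give neither their strain and age at surgery nor the time from surgery to sampling. The B cells were selected from bone marrow with magnetic beads, which enrich B cells without sorting each cell, so that other marrow cells can be carried over. The HIF-1α ChIP-seq of the same study was not analysed here.

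Resident macrophages sit in the marrow around developing erythroid cells and along the sinusoids, where they engulf expelled nuclei, aged blood cells and dying cells and return their iron to the blood. The protein C1q, which starts the classical complement pathway and coats dying cells, is built from chains encoded by C1qa, C1qb and C1qc and is made mainly by macrophages and dendritic cells. AXL and MERTK are receptor tyrosine kinases that bind dying cells through the bridging ligands GAS6 and protein S, VCAM1 is an adhesion protein that holds cells carrying the integrin VLA-4, and SPIC is an ETS family transcription factor needed for the macrophages that recycle red cells. Adgre1 encodes the surface protein F4/80 and Cd68 a glycoprotein of the lysosome, both in wide use as macrophage markers.

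The 6 libraries held between 23838775 and 33136701 counted reads. Every pair of libraries differed by more than sampling noise, with at least 9.35 times the chi-square per gene that sampling alone gives. The labels do not say whether the libraries came from separate mice, so the p-values measure the spread between libraries, which may be technical. The B cell label held against its markers. All 16 B cell genes examined were tested, with a summed level between 13110 and 16110 CPM in Sham and between 13560 and 14920 CPM in OVX, where CPM are the counts scaled to library size with TMM factors, the unit of all levels below. Of the 16 genes 5 had their 2 highest levels in Sham replicate 2 and OVX replicate 3, and Ebf1, a factor of early B cells, was higher in OVX at an unadjusted p of 0.0181 (log2 fold change 0.35, standard error 0.12, adjusted p = 0.811 in edgeR's quasi-likelihood test). Cd79a, which encodes a signal chain of the B cell receptor, was at 1666 ± 113 CPM in Sham and 1736 ± 170.2 CPM in OVX (SD, n = 3). Other markers of the list were less even, and Sham replicate 2 stood apart in them. Cd74, the most abundant of the 16, was at 4568 CPM there and between 2103 and 2757 CPM elsewhere. Rag1 and Cr2 are named because of their values. Rag1 was at 580.7 CPM in Sham replicate 2 and between 975.2 and 1516 CPM elsewhere, and Cr2 at 177.1 CPM against 50.7 to 92.7 CPM.

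The C1q genes lie side by side on mouse chromosome 4, where C1qb (136880126 to 136886200), C1qc (136889801 to 136892936) and C1qa (136895916 to 136898844) span 18719 bases in RefSeq's annotation of GRCm38.p6, with gaps of 3600 and 2979 bases between them. The sequences before the transcription start of C1qb and C1qc, and that of Spic on chromosome 10 (88675269 to 88683023), are shown because these genes moved together over the libraries and because Spic encodes a factor of the ETS family, whose members bind a purine-rich core around GGAA. RefSeq promoters (250 bases before to 50 after the annotated start) were matched for 6 of the 9 genes, C1qb, C1qc, Spic, Axl, Mertk and Cd68. Each line gives the 250 bases before the start on the gene's strand, which is the minus strand for all 3, at chr4:136886201-136886450 for C1qb, chr4:136892915-136893164 for C1qc and chr10:88683024-88683273 for Spic in GRCm38.p6. Capitals mark the letters GAGGAA or GGAAGT, read on either strand, where they overlap as 1 run.
C1qb: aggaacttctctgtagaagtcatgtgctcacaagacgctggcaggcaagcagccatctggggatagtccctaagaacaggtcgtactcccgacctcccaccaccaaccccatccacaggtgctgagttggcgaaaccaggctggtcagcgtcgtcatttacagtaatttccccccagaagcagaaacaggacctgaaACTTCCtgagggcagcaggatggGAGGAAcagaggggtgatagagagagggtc
C1qc: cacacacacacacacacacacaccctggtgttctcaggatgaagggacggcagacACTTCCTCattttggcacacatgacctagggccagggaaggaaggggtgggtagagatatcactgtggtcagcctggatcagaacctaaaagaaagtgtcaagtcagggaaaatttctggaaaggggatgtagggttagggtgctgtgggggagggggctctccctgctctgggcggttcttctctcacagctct
Spic: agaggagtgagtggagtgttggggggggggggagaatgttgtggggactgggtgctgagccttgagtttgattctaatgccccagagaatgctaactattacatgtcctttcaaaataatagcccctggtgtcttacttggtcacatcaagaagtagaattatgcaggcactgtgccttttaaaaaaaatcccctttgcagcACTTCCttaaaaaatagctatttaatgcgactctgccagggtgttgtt

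GAGGAA was present in the promoters of C1qb, C1qc, Axl and Cd68, that is 4 of the 6, and in 28.3% of all 32851 promoters of the same length. GGAAGT was present in those of C1qb, C1qc, Spic and Cd68, against 23.8% of all promoters. At least 1 of both, which share the letters GGAA and can overlap, was found in 5 of 6 and in 43.4% of all. The study asked about HIF-1α, whose sites hold ACGTG or a close relative as their core. That core was in none of the 6 promoters and in 19.6% of all promoters of this length. Its relative GCGTG was in the promoter of Mertk, 46 bases after the start, and in 32.4% of all. These are matches of letters in a short window, and binding was not measured here.

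Reads of C1qa (ENSMUSG00000036887) numbered 2436, 6302 and 1606 in Sham replicates 1 to 3 and 1366, 1886 and 6176 in OVX replicates 1 to 3. This is a level of 103, 222 and 64.6 CPM in Sham and 55.6, 66.6 and 187 CPM in OVX. Sham replicate 2 and OVX replicate 3 were high, Sham replicate 1 was next, and the groups overlapped. The means were 103.1 ± 72.9 CPM in OVX and 129.8 ± 82.1 CPM in Sham (SD, n = 3), a log2 fold change of -0.33 (95% interval from -1.68 to 1.013) with a standard error (SE) of 0.57 and an adjusted p of 0.886 in the quasi-likelihood test of edgeR, adjusted by Benjamini-Hochberg over all genes tested. The exact permutation test of the log2 level, two-sided over the 20 ways to split 6 libraries, gave p = 0.6, where 3 against 3 cannot go below 0.1. In RNA of a whole cell fraction, fewer macrophages and less RNA per macrophage cannot be told apart.

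The other two chains followed C1qa closely. For C1qb (ENSMUSG00000036905) the counts were 2600, 6285 and 1617 reads in Sham replicates 1 to 3 and 1367, 1884 and 6044 reads in OVX replicates 1 to 3. For C1qc (ENSMUSG00000036896) they were 2365, 5814 and 1608 in Sham and 1392, 1783 and 6123 in OVX. The same libraries were high and low as for C1qa, and both genes overlapped between the groups. The log2 fold changes were -0.38 (SE 0.56) for C1qb and -0.28 (SE 0.56) for C1qc, with adjusted p-values of 0.87 and 0.903 in edgeR's quasi-likelihood test. Added up, the 3 chains made 312, 648 and 194 CPM in Sham and 168, 196 and 555 CPM in OVX. Per read of C1qa there were between 0.979 and 1.07 reads of C1qb and between 0.923 and 1.02 reads of C1qc in every library, while C1qa itself differed by 3.99 times between the highest and the lowest library.

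**Figure D1:**
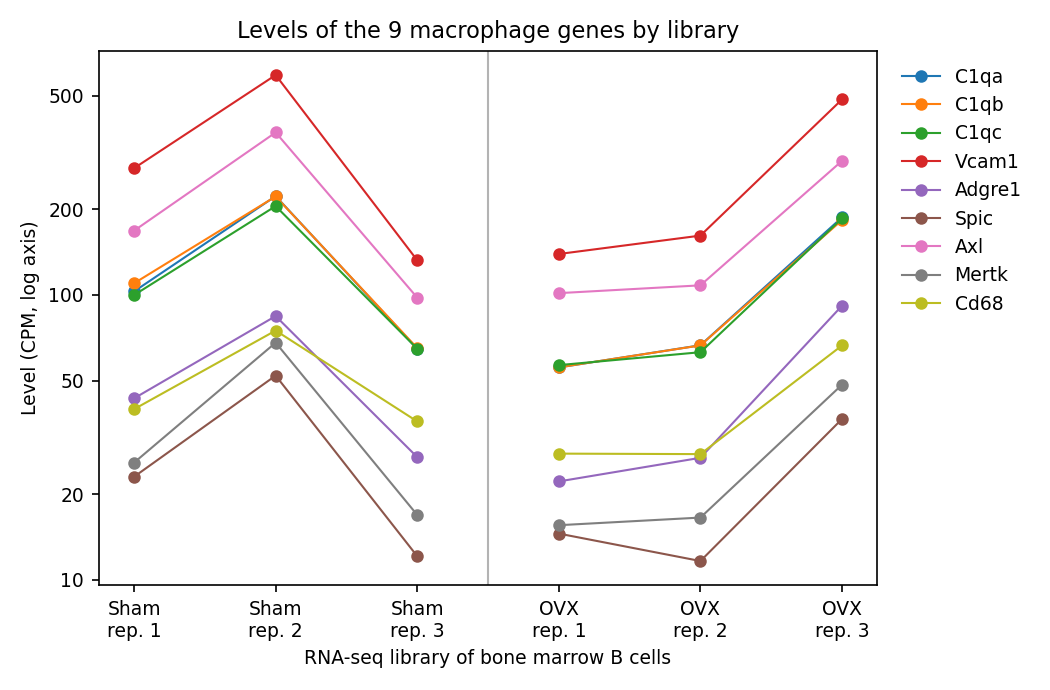
Level of the 9 genes in CPM (log axis) in each of the 3 Sham and 3 OVX libraries, where each point is 1 library and lines only join the points of a gene. All 9 genes have their highest levels in Sham replicate 2 and OVX replicate 3, and C1qa runs from 55.6 to 222 CPM.

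Among 16 other genes of the complement system, 14 were tested and 4 (Cfp, Lrp1, C4b and C1ra) shared the 2 highest libraries with the C1q genes. C1ra, which encodes the protease that joins C1q in the C1 complex and was named for this role, had 48, 91 and 46 reads in Sham replicates 1 to 3 and 26, 44 and 115 in OVX replicates 1 to 3. Serping1, which encodes the C1 inhibitor, was the only tested gene of the list with an unadjusted p under 0.05. It had 21, 30 and 34 reads in Sham and 39, 56 and 114 in OVX. These are low levels, between 0.886 and 1.37 CPM in Sham and between 1.59 and 3.45 CPM in OVX. Its groups did not overlap, which held for 8.44% of all genes tested. The log2 fold change of Serping1 was 1.09 (SE 0.37, adjusted p = 0.811 in edgeR's quasi-likelihood test). The median log2 fold change of the list was -0.35 and its summed level was between 1390 and 1536 CPM in Sham and between 1275 and 1469 CPM in OVX. Most of that level came from Calr and Cd93, of which Calr encodes a chaperone found in all cells and Cd93 a receptor of early B cells.

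Axl (ENSMUSG00000002602, chromosome 7, 25756500 to 25788924) had 3978, 10542 and 2430 reads in Sham replicates 1 to 3 and 2490, 3059 and 9751 reads in OVX replicates 1 to 3, or 168, 371 and 97.8 CPM and 101, 108 and 295 CPM. For Mertk (ENSMUSG00000014361, chromosome 2, 128698915 to 128803162) the reads were 611, 1930 and 420 in Sham and 382, 469 and 1599 in OVX. Both receptors were high in Sham replicate 2 and OVX replicate 3 and overlapped between the groups. Axl was at 168 ± 110 CPM in OVX and 212 ± 142 CPM in Sham (SD, n = 3) and Mertk at 26.8 ± 18.7 and 36.9 ± 27.3 CPM. In edgeR's quasi-likelihood test the log2 fold changes were -0.34 (SE 0.57, adjusted p = 0.883) for Axl and -0.46 (SE 0.61, adjusted p = 0.858) for Mertk. Reads of Axl per read of Mertk differed by 1.19 times between the highest and the lowest library.

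The third receptor of the family, Tyro3, had at most 8 reads in a library and was not tested. Its ligand genes were measured at low levels. Gas6 had 128, 240 and 130 reads in Sham replicates 1 to 3 and 135, 95 and 345 reads in OVX replicates 1 to 3, again with the 2 highest levels in Sham replicate 2 and OVX replicate 3 (log2 fold change 0.02, SE 0.42). Pros1, which encodes protein S, had between 70 and 102 reads in Sham and between 81 and 181 in OVX (log2 fold change 0.34, SE 0.27). Of 19 genes of these ligands and of the engulfment of dying cells, 18 were tested, 9 shared the 2 highest libraries, none had an unadjusted p under 0.05, and the median log2 fold change was -0.18. Some of the most abundant genes of the list were flat over the libraries. Rac1, a small GTPase of the cytoskeleton, differed by 1.21 times between the highest and the lowest library and Elmo1, which acts upstream of it, by 1.19 times.

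Vcam1 (ENSMUSG00000027962, chromosome 3, 116110020 to 116129688) had 6589, 16758 and 3285 reads in Sham replicates 1 to 3 and 3415, 4572 and 16014 reads in OVX replicates 1 to 3. In CPM this is 278, 590.3 and 132 in Sham and 139, 161 and 485 in OVX. The high libraries were those of the C1q genes and the groups overlapped. Its mean was 262 ± 194 CPM in OVX and 334 ± 234 CPM in Sham (SD, n = 3), with a log2 fold change of -0.35 (SE 0.63, adjusted p = 0.89 in edgeR's quasi-likelihood test). Of the integrin chains that bind VCAM1, Itga4 and Itgb1, which form VLA-4, differed by 1.27 and 1.34 times between the highest and the lowest library, with log2 fold changes of -0.10 (SE 0.10) and -0.07 (SE 0.11). Itgb7, whose product pairs with the same alpha chain, differed by 3.85 times, near the 4.47 times of Vcam1, and was highest in Sham replicate 2 but not high in OVX replicate 3, with 942, 4345 and 1843 reads in Sham replicates 1 to 3 and 2078, 1317 and 1580 in OVX replicates 1 to 3. Of 8 partner and adhesion genes 6 were tested, 2 of them (Itgb1 and Icam1) had their 2 highest levels in Sham replicate 2 and OVX replicate 3, and Madcam1 and Icam4 had no read in any library. Emb, an adhesion protein of the immunoglobulin family, was lower in OVX at an unadjusted p of 0.0484 (log2 fold change -1.10, SE 0.47, adjusted p = 0.811), with its highest count of 997 reads in Sham replicate 3.

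Spic (ENSMUSG00000004359) had 545, 1479 and 301 reads in Sham replicates 1 to 3 and 357, 330 and 1212 in OVX replicates 1 to 3. The level was 23.0, 52.1 and 12.1 CPM in Sham and 14.5, 11.65 and 36.7 CPM in OVX, so that Sham replicate 2 and OVX replicate 3 again stood highest and the groups overlapped. Its log2 fold change was -0.47 (SE 0.60, adjusted p = 0.854 in edgeR's quasi-likelihood test). It was the most negative of the 9, on means of 21.0 ± 13.7 CPM in OVX and 29.1 ± 20.7 CPM in Sham (SD, n = 3). Other factors of the ETS family and their partners, which B cells also use, had flatter levels. Spib, a relative of Spic that acts in B cells, had between 38045 and 63182 reads and was highest in OVX replicate 2. Spi1, which encodes PU.1 and was named for that role, differed by 1.23 times between the highest and the lowest library (log2 fold change -0.05, SE 0.09). Of the 12 genes of this list 6 shared the 2 highest libraries with Spic, among them Maf, Nr1h3 and Pparg, which macrophages are known to use, and the median log2 fold change was -0.07.

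Spic is known for its part in the macrophages that take up red cells, and several genes of heme and iron handling lay near the C1q genes. Hmox1, which encodes the enzyme that opens heme, had 6150, 14878 and 3925 reads in Sham replicates 1 to 3 and 3218, 4184 and 15187 reads in OVX replicates 1 to 3. Slc40a1, which encodes the iron exporter ferroportin, had 5663, 12791 and 3452 reads in Sham and 2891, 3508 and 12784 in OVX. In both genes Sham replicate 2 and OVX replicate 3 held the most reads and Sham replicate 1 came next. Their log2 fold changes were -0.35 (SE 0.58) and -0.40 (SE 0.57), with adjusted p-values of 0.88 and 0.864 in edgeR's quasi-likelihood test. Bach1, which encodes a heme-sensitive repressor and was named for that role, had between 1002 and 1576 reads and a log2 fold change of -0.03 (SE 0.11). Fth1 and Tfrc, which B cells also express, differed by 1.29 and 1.32 times between libraries. Of 16 genes of iron and heme recycling 13 were tested, 9 shared the 2 highest libraries, none had an unadjusted p under 0.05 and the median log2 fold change was -0.08.

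Adgre1 (ENSMUSG00000004730, chromosome 17, 57358581 to 57483529) had 1027, 2392 and 670 reads in Sham replicates 1 to 3 and 544, 760 and 3026 reads in OVX replicates 1 to 3. It alone of the 9 had its highest level in OVX replicate 3, with 91.6 CPM there and 84.25 CPM in Sham replicate 2, and its groups overlapped. The log2 fold change was -0.13 (SE 0.61, adjusted p = 0.961 in edgeR's quasi-likelihood test). The annotated span of Adgre1 overlaps 2 predicted genes, Gm18069 and Gm20243, and how reads of overlapping genes were assigned is not known, which makes its counts less certain.

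Cd68 (ENSMUSG00000018774, chromosome 11, 69664213 to 69666170) had 941, 2128 and 894 reads in Sham replicates 1 to 3 and 681, 783 and 2195 reads in OVX replicates 1 to 3. Its level of 39.7, 74.95 and 36.0 CPM in Sham and 27.7, 27.6 and 66.45 CPM in OVX spanned 2.71 times, the smallest span of the 9, and the groups overlapped. The means were 40.6 ± 22.4 CPM in OVX and 50.2 ± 21.5 CPM in Sham (SD, n = 3), a log2 fold change of -0.30 (SE 0.42, adjusted p = 0.858 in edgeR's quasi-likelihood test). Cd68 belongs to the lysosome, and of 17 other lysosome genes, all tested, 13 shared the 2 highest libraries. Psap, the saposin precursor, differed by 1.34 times between the highest and the lowest library and Ctsb, which encodes cathepsin B, by 2.27 times. The summed level of the lysosome list was between 3346 and 4667 CPM in Sham and between 3011 and 4475 CPM in OVX, none of its genes had an unadjusted p under 0.05, and the median log2 fold change was -0.18.

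In each of the 9 genes, Sham replicate 2 and OVX replicate 3 held the 2 highest levels and Sham replicate 1 came next. Of all genes tested, 8.67% had their 2 highest levels in those libraries. The pattern was noticed in the data and is given as a description. The levels of the 9 genes differed by 2.71 to 4.47 times between the highest and the lowest library, whereas the median over all genes tested was 1.43 times. Counting error was small beside this, at most 5.76% of the lowest count of a gene. Summed over the 9 genes, the level was 890.3, 1889 and 516 CPM in Sham replicates 1 to 3 and 489, 548 and 1578 CPM in OVX replicates 1 to 3.

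Likeness was measured as the root mean square, over the 6 libraries, of the difference between 2 genes' log2 CPM after each gene's own mean was taken off. Over the 36 pairs of the 9 genes it ranged from 0.039 (C1qa and C1qb) to 0.38 (Vcam1 and Cd68), with a median of 0.15. Against the mean of the C1q genes, the median over all genes tested was 0.79, while Axl was at 0.083, Adgre1 and Mertk at 0.11, Vcam1 at 0.14, Spic at 0.19 and Cd68 at 0.25. Cd68 departed most. It had 0.557 reads per read of C1qa in Sham replicate 3 and 0.338 in Sham replicate 2. Vcam1 departed in the same library in the other direction, with 2.05 reads per read of C1qa in Sham replicate 3 against 2.42 to 2.70 elsewhere.

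**Figure D2:**
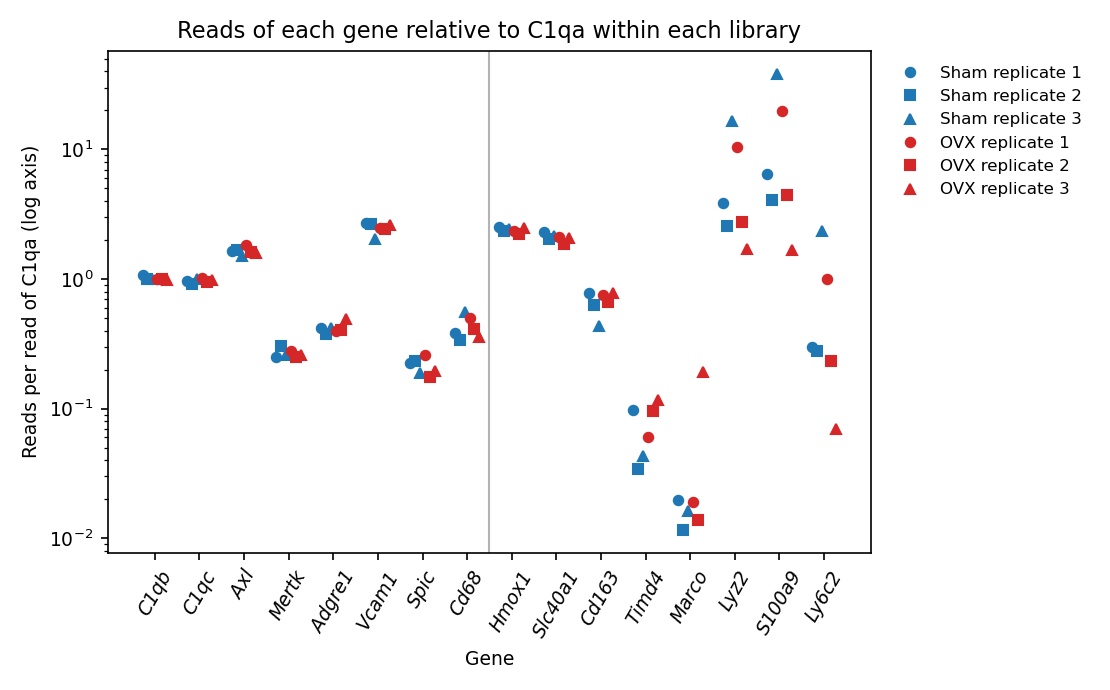
Reads of each gene per read of C1qa within each library (log axis), 1 point per library, with 8 of the 9 genes to the left of the line and other macrophage, monocyte and neutrophil genes to the right. The ratio of Axl stays between 1.51 and 1.82, whereas that of Ly6c2 runs from 0.0695 to 2.33.

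The genes outside the 9 whose profiles lay nearest to that of the C1q genes were Hmox1 (root mean square difference 0.050), Mpzl1 (0.074), Stab2 (0.080), Slc40a1 (0.081), Cmbl (0.090), Slco2b1 (0.093), Nr1h3 and Kcnj10 (both 0.094), Cd14 (0.095) and Adgre4 (0.099). These values are over 6 libraries that share sequencing depth and cell makeup with the C1q genes, and no p is given. Stab2 encodes a scavenger receptor of sinusoidal endothelium, and had 330, 781 and 187 reads in Sham replicates 1 to 3 and 191, 243 and 788 in OVX replicates 1 to 3. Nr1h3 encodes the liver X receptor alpha, a sterol-sensing nuclear receptor of macrophages. The paper lists Nr1h3 among genes upregulated in B cells after OVX and bound by HIF-1α, and does not state the test used. Here its log2 fold change was -0.34 (SE 0.53). All 10 had log2 fold changes below 0, from -0.44 (Slco2b1) to -0.21 (Mpzl1), with SEs from 0.53 to 0.62.

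Of 32 other genes known from resident macrophages, 29 were tested and 21 shared the 2 highest libraries, with a median difference of 0.35 from the C1q profile. Hmox1, Slc40a1, Cd163 and Trf among them are also counted in the list of iron and heme recycling. Their summed level was between 1320 and 3446 CPM in Sham and between 1083 and 2981 CPM in OVX. Apoe, the apolipoprotein of lipid efflux, was the most abundant, with 5962, 16342 and 4999 reads in Sham replicates 1 to 3 and 5169, 4622 and 15878 in OVX replicates 1 to 3. Some genes of the list departed from the C1q profile, and the following were singled out after their values were seen. Marco, a scavenger receptor of a subset of macrophages, had 48, 73 and 26 reads in Sham and 26, 26 and 1176 in OVX. OVX replicate 3 alone was high, with 0.19 reads per read of C1qa against at most 0.0197 elsewhere. Marco is still counted among the 21, as Sham replicate 2 came second, but its difference from the C1q profile was 1.34. Timd4, a receptor for phosphatidylserine, had 238, 214 and 69 reads in Sham and 83, 181 and 719 in OVX.

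The 2 genes of this list with an unadjusted p under 0.05 were both lower in OVX. Trem2, a lipid receptor of macrophages, had 74, 163 and 125 reads in Sham replicates 1 to 3 and 57, 34 and 84 in OVX replicates 1 to 3, with a log2 fold change of -1.19 (SE 0.36, adjusted p = 0.811 in edgeR's quasi-likelihood test). Msr1, a scavenger receptor, had 26, 71 and 92 reads in Sham and 32, 13 and 13 in OVX, with a log2 fold change of -1.78 (SE 0.60, adjusted p = 0.811). Neither followed the C1q genes, with differences of 0.79 and 1.39 from their profile.

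Most markers of other myeloid cells had another order of libraries than the 9 genes. All 18 neutrophil genes were tested and all 18 were highest in Sham replicate 3, where the 9 macrophage genes were low. Their summed level was 2637, 3521 and 9793 CPM in Sham replicates 1 to 3 and 4249, 1172 and 1234 CPM in OVX replicates 1 to 3. Their median log2 fold change was -1.26 and none was at an unadjusted p under 0.05. The 14 monocyte genes, all tested, summed to 773, 1278 and 1958 CPM in Sham and 1036, 449 and 734 CPM in OVX. Their median log2 fold change was -0.94, 8 were highest in Sham replicate 3, and 2 (F13a1 and Ms4a6c) were lower at an unadjusted p under 0.05. Of 10 genes of dendritic cells 9 were tested and 3 (Flt3, Itgax and Cd209a) were lower at that p, on a summed level of 49.9 to 103.9 CPM in Sham and 39.7 to 55.1 CPM in OVX. Treml4 and Cd14 of the monocyte list, and Clec9a of the dendritic list, did have their 2 highest levels in Sham replicate 2 and OVX replicate 3, and Cd14 is one of the 10 genes nearest to the C1q profile. No listed neutrophil, monocyte or dendritic gene was at 0 in all libraries. The part of these cells in the levels of the 9 genes was not tested. S100a9, a neutrophil gene, varied by 23.1 times relative to C1qa, and Ly6c2, a monocyte gene, by 33.6 times.

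**Figure D3:**
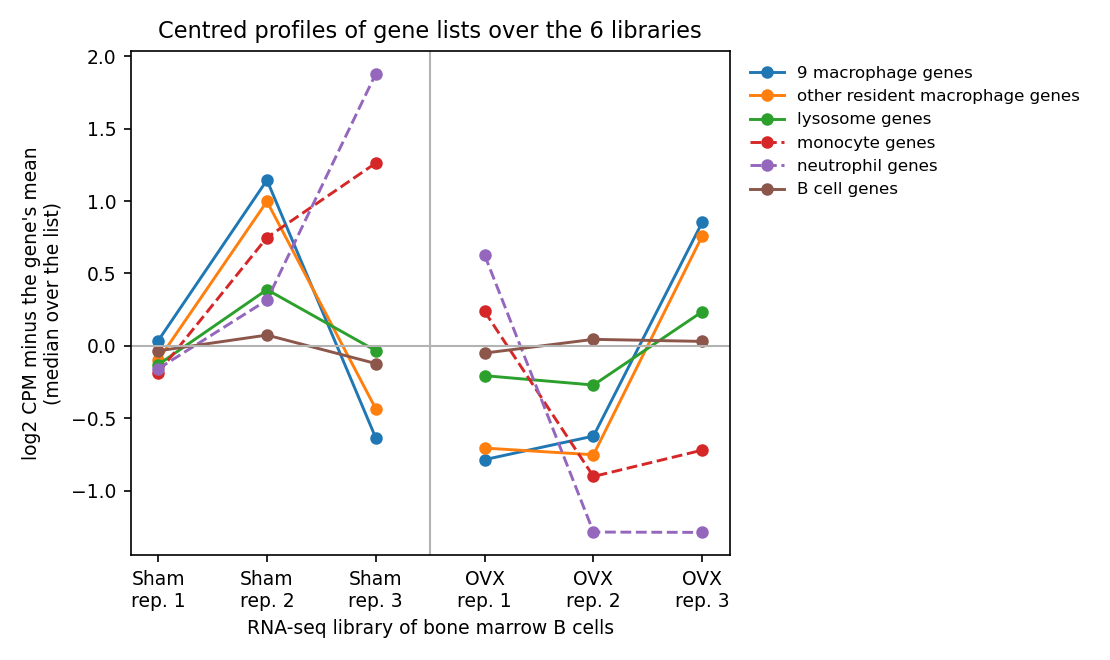
Median over each gene list of log2 CPM minus the gene's mean over the 6 libraries, where each point is 1 library and lines only join the points of a list. The medians of the 9 genes and of the 29 other resident macrophage genes peak in Sham replicate 2 and OVX replicate 3. Those of the 18 neutrophil genes and of the 14 monocyte genes peak in Sham replicate 3, and that of the 16 B cell genes stays near 0.

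The comparison of OVX with Sham asked whether estrogen deficiency came with a change in these genes. None of the 9 was called at an adjusted p under 0.05 with a fold of at least 1.6, where 0% of the 15305 genes tested were called, and the lowest adjusted p of any gene was 0.811. The counts called were also 0 with DESeq2 and with limma-voom. At an unadjusted p under 0.05 none of the 9 passed in edgeR's quasi-likelihood test, where 2.28% of all genes tested were lower and 1.47% higher in OVX. None of the 9 had groups that did not overlap, against 8.44% of all genes tested.

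All 9 genes were lower in OVX on average. Their median log2 fold change was -0.34, beside -0.01 over all genes tested. As the 9 genes rise and fall together over the libraries, this is not 9 separate observations. The intervals were wide. The 95% interval of every gene held 0, and that of Vcam1 ran from -1.83 to 1.13 while that of Cd68, the narrowest, ran from -1.28 to 0.67. The spread of log2 CPM within groups was between 0.66 and 1.03, above the log2 fold change of each gene.

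**Figure D4:**
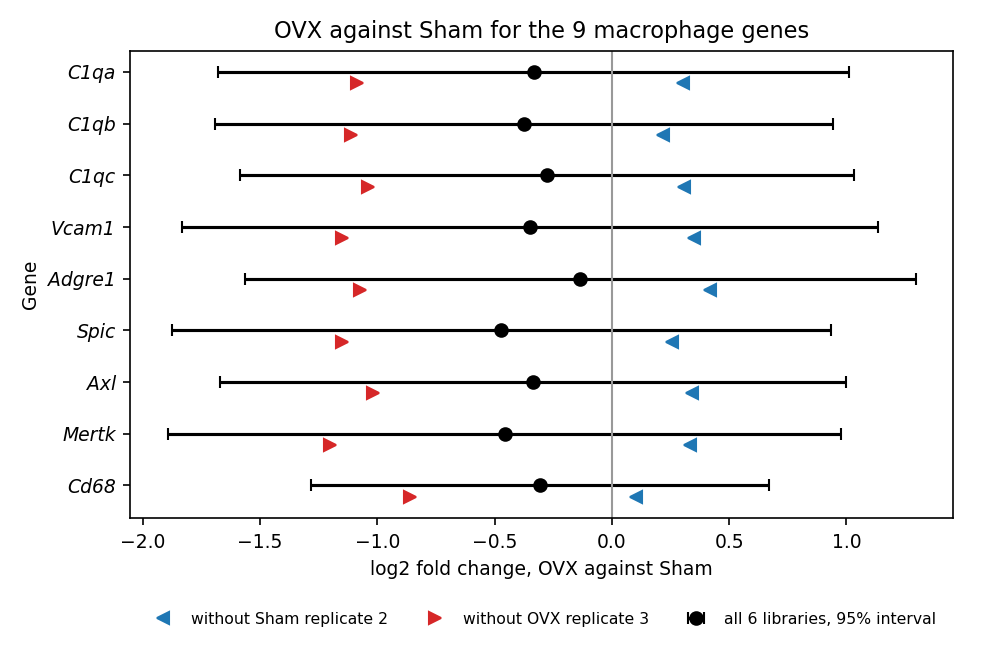
Log2 fold change of OVX against Sham for the 9 genes, with black points and 95% intervals from all 6 libraries, and triangles for the values without Sham replicate 2 or without OVX replicate 3. Every interval holds 0, and the triangles lie on opposite sides of 0, at 0.30 and -1.09 for C1qa.

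The direction turned with Sham replicate 2 and the size moved with OVX replicate 3. Without Sham replicate 2 all 9 genes were higher in OVX (median log2 fold change 0.31), and without OVX replicate 3 all 9 were lower with a median of -1.09. In the latter fit 1 of the 9 had an unadjusted p under 0.05 and none was called. For C1qa the values were 0.30 and -1.09, for Vcam1 0.35 and -1.15, and for Cd68 0.10 and -0.86. A difference in these genes between OVX and Sham was not detectable with 3 libraries per group at this spread between libraries.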

How the data were processed

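RNA-seq libraries of bead-selected bone marrow B cells, 3 Sham and 3 OVX, were grouped by the treatment in the labels. The authors deposited raw read counts per Ensembl gene for the 6 libraries, without normalization. The submitters' processing notes name CASAVA, Bowtie 0.12.2 and mm10. The counting tool, annotation and strand setting are not given in the sources used here, so reads of overlapping genes cannot be checked. Labels name Trizol for the RNA, whereas the methods of the study name other reagents. Symbols were matched to 54409 of 54532 identifiers. Positions and promoters are those of RefSeq, GRCm38.p6, the release line of mm10.

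Differences were tested with edgeR 4.0.16 in R 4.3.3 (filterByExpr by group, TMM, quasi-likelihood test, Benjamini-Hochberg adjustment over 15305 genes). Genes were called at an adjusted p under 0.05 and a fold of at least 1.6. Standard errors are the log2 fold change over the square root of F. Profiles used log2 CPM with a prior count of 2. DESeq2 1.42.0, limma-voom (limma 3.58.1), other scalings and filters, left-out libraries and a replicate block were alternatives. The fits were tested on simulated data. The 9 genes and all lists, for complement, engulfment, iron, adhesion, ETS factors, lysosome and marrow cell types, were chosen with earlier results of these data known. Some genes, such as Hmox1, Nr1h3 and Lrp1, stand in more than 1 list, so the counts over lists are not separate observations. The text names the 9 genes, the 10 nearest in profile, and from each list the most abundant genes and those at an unadjusted p under 0.05, with others marked where named. Some genes of the lists are not reported here.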

Additional observations from a re-analysis of the deposited data

How the results depend on the processing

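None of the 9 genes, and 0 genes in all, was called in any of the 17 alternatives, with edgeR, DESeq2 or limma-voom. Other scalings, filters and tests and the block kept all 9 lower. Leaving out single libraries gave log2 fold changes from -1.09 to 0.30 for C1qa, -1.11 to 0.22 for C1qb, -1.04 to 0.31 for C1qc, -1.15 to 0.35 for Vcam1, -1.07 to 0.42 for Adgre1, -1.15 to 0.26 for Spic, -1.02 to 0.34 for Axl, -1.20 to 0.33 for Mertk and -0.86 to 0.10 for Cd68, lowest without OVX replicate 3 and highest without Sham replicate 2 in each case. For the log2 ratio of summed levels the ranges were -1.08 to 0.27 for the 3 C1q genes and -1.08 to 0.31 for all 9. Without OVX replicate 1, 2 of the 9 were higher in OVX, and without OVX replicate 2, 1 was. Adjusted p-values of C1qa ran from 0.734 to 1.00 over the alternatives.

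At an unadjusted p under 0.05, 225 genes were higher and 349 were lower, against 65 and 572 with scaling on 12 B cell genes, which moved the median of all genes to -0.09 and that of the 9 to -0.40. DESeq2 gave 206 and 480, no filter 364 and 905 of 27416 genes, and the fit without Sham replicate 1 gave 1254 and 1444. With the replicate number as a block there were 74 and 132, C1qa was at -0.41, and 0 genes were called. Same-numbered libraries did not deviate together (correlations of -0.41, -0.19 and -0.28). With 3 libraries per group this cannot show whether they are paired, and the labels do not say what the number marks. Of the 10 genes nearest to the C1q profile, 9 were kept with a prior count of 0.5 and 10 with library size only. Tyro3 had too few reads for a test.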

Other observations

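Some genes listed for other cell types had the profile of the C1q genes, and the genes in this paragraph were singled out after their values were seen. Lpl, a lipase listed with stromal genes, had 1246, 3672 and 977 reads in Sham replicates 1 to 3 and 756, 864 and 3056 in OVX replicates 1 to 3, a root mean square difference of 0.14 from the C1q profile. Kitl, the ligand of the stem cell factor receptor, had 122, 328 and 67 reads in Sham and 84, 122 and 260 in OVX (difference 0.25). The paper lists Kitl among the genes upregulated after OVX and bound by HIF-1α, whereas its log2 fold change here was -0.31 (SE 0.54). Cxcl12, the most abundant chemokine of marrow stroma, did not share this order and had 444, 342 and 378 reads in Sham and 517, 445 and 1508 in OVX. Of 14 stromal genes 11 were tested, 2 (Lpl and Kitl) shared the 2 highest libraries with C1qa, and 1 (Acta2) was lower in OVX at an unadjusted p under 0.05. Of 12 endothelial genes 9 were tested, Pecam1 and Stab2 shared the 2 highest libraries, and Vwf and Esam were higher in OVX at that p. Pecam1 shared only the order of libraries and was flat. Its level differed by 1.03 times between the highest and the lowest library, and its difference from the C1q profile was 0.76.

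Resident macrophages are known to surround erythroid cells. Of 12 erythroid genes, all tested, 4 shared the 2 highest libraries with C1qa, and these were the globin genes Hbb-bs, Hbb-bt, Hba-a1 and Hba-a2, which are near-identical copies in pairs. How reads were assigned between copies is not known, so their values are uncertain. Hbb-bs had 2537, 6204 and 2653 reads in Sham replicates 1 to 3 and 2837, 1986 and 4719 in OVX replicates 1 to 3. Ermap and Klf1, genes of nucleated erythroid cells, were lower in OVX at an unadjusted p under 0.05 and were highest in Sham replicate 3. Of 8 osteoclast genes 4 were tested, and Acp5 shared the 2 highest libraries. The level of Acp5 differed by 1.455 times between the highest and the lowest library, with a difference of 0.61 from the C1q profile. None of these genes was called in edgeR's quasi-likelihood test.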
